A study of Mus musculus with 12 samples.

Results

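Glycolysis, glucose transport and the entry of pyruvate into mitochondria were followed through 35 genes. They were listed by name from textbook roles, and all 35 were found among the 36229 rows of the deposited table, of which 30983 carried a gene symbol. They code for glucose transporters, the enzymes from hexokinase to pyruvate kinase, the enzymes that make and break the regulator of phosphofructokinase, lactate dehydrogenase and lactate carriers, and pyruvate dehydrogenase with its kinases. Mouse embryonic fibroblasts of strain C57BL/6, either wild type (WT), Kdm5a-/- (Kdm5a KO), Rb1-/- (Rb1 KO) or Kdm5a-/-;Rb1-/- (DKO), had all been transduced with an adenovirus carrying MyoD. MyoD is the transcription factor that starts the skeletal muscle programme. Rb1 codes for the retinoblastoma protein, which restrains E2F factors and the cell cycle, and Kdm5a for a histone demethylase that binds it. The differentiation medium held 2% horse serum with insulin at 10 µg/ml. Virus was removed after 24 h and the cells were kept in that medium for another 72 h. Each genotype had 2 libraries of the whole culture (called mixed), ribosome-depleted and read for 40 bases. DKO and WT also had 2 libraries each of myotubes taken from such cultures by size and left 24 h to recover (called purified), selected with oligo(dT) and read for 36 bases. The series was set up to compare expression in fibroblasts lacking either gene once myogenic differentiation was induced. Whether the replicate libraries of a genotype are separate cultures, and which stretch of either gene was deleted, are not stated in the labels, so p-values measure only the spread between these libraries.

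Glucose enters cells through facilitative transporters, is trapped as a phosphate by hexokinase and is split and oxidised to pyruvate. Pyruvate becomes lactate or, through the pyruvate dehydrogenase complex, acetyl-CoA for mitochondria. Most steps have several isozymes, and skeletal muscle uses its own set. Among them are GLUT4 (Slc2a4), the M subunit of phosphofructokinase (Pfkm), the muscle mutase (Pgam2) and beta-enolase (Eno3). Hexokinase 2 (Hk2) and aldolase A (Aldoa) are also abundant there. Growing fibroblasts rely more on GLUT1 (Slc2a1), hexokinase 1 (Hk1), liver and platelet phosphofructokinase (Pfkl, Pfkp), Pgam1 and alpha-enolase (Eno1). Pyruvate dehydrogenase kinases switch the complex off, and several glycolytic genes, Pdk1 among them, are known targets of the hypoxia-inducible factor HIF1.

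Values are the authors' normalised counts, that is, reads over each library's size factor, and depth was 8688604 to 41309134 reads. A change is a log2 difference of value + 1 with its standard error (SE), and a gene is said to have risen or fallen only where limma's adjusted p was under 0.05. Summed over 10 muscle markers, values were 234604 to 252822 in Kdm5a KO, 37632 to 37904 in Rb1 KO and 92329.9 to 93241 in DKO, against 268179.9 to 279515 in WT. The sum of 10 cell cycle markers was 1457 to 1474 in Kdm5a KO, 19603 to 21738 in Rb1 KO and 39233 to 39611 in DKO, against 800.4 to 860.2 in WT. That of 10 fibroblast markers was 8973 to 9434 in Kdm5a KO, 80643 to 97363 in Rb1 KO and 14674 to 15491 in DKO, against 10918 to 11399 in WT. In these bulk samples fewer cells of a type and less RNA per cell cannot be told apart, and the part of these cell markers in the changes given here was not tested. The sum of 6 adipocyte markers, a cell type that also uses Slc2a4, was 2224 to 2397 in Kdm5a KO, 805 to 906 in Rb1 KO and 1312 to 1393 in DKO, against 2929 to 3236 in WT, with Cidec at 0 in Kdm5a KO, Adipoq and Cidec at 0 in Rb1 KO and Fabp4 and Plin1 at 0 in WT. That of 5 endothelial markers was 123 to 147 in Kdm5a KO, 95.9 to 98.7 in Rb1 KO and 354 to 379 in DKO, against 94.9 to 102 in WT. That of 6 macrophage and blood markers was 46.1 to 56.7 in Kdm5a KO, 183 to 225 in Rb1 KO and 121 to 129 in DKO, against 74.2 to 112 in WT, with the haemoglobin genes Hba-a1 and Hbb-bs at 0 in every group. Kdm5a read 1088 and 1192 in Kdm5a KO and 1319 and 1369.7 in DKO, against 1637 and 1871 in WT. Rb1 read 4457 and 4448 in Rb1 KO and 5309 and 5662 in DKO, against 5616 and 5649.5 in WT, so reads of both genes remained under the knockout labels. Where in either gene the deletion lies is not given, so these counts check the labels only in part. Xist was read in Kdm5a KO and DKO libraries and Ddx3y in Rb1 KO and WT libraries, which makes Rb1 KO against WT and DKO against Kdm5a KO the comparisons within a sex. Pgk1, Pdha1, Pdk3 and Pfkfb1 lie on the X chromosome. The replicates of purified DKO stood apart, with a median absolute log2 difference of 0.469 over the 35 genes, against 0.0510 to 0.151 in the other groups.

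Most of the pathway was lower in Rb1 KO than in WT cultures. Of 34 genes tested, 24 fell, 5 rose and 5 did not pass, where 71.1% of all genes tested were called, with 36.8% that rose and 34.3% that fell. The median change of the 34 was -0.92, against 0.03 over all genes. The 6 forms named above as abundant in muscle (Slc2a4, Hk2, Pfkm, Aldoa, Pgam2 and Eno3) all fell, with log2 changes of -2.91 to -2.14. In DKO cultures, set against Rb1 KO, all 6 rose, by 0.46 to 1.71. Of the 34 genes 13 rose, 8 fell and 13 did not pass, where 47.3% of all genes tested were called, with 23.1% that rose and 24.2% that fell. Kdm5a KO against WT gave 14 rises, 5 falls and 15 genes that did not pass, where 27.2% of all genes tested were called, with 13.4% that rose and 13.8% that fell. Aldoc, the brain form of aldolase, had a mean under 10 in mixed libraries and was not tested there. Upper-quartile scaling moved the median of all genes in Rb1 KO against WT to -0.10, and no call among the 35 genes changed direction under TMM or upper-quartile scaling. These comparisons share libraries, so each is given by its own values.

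**Figure D1:**
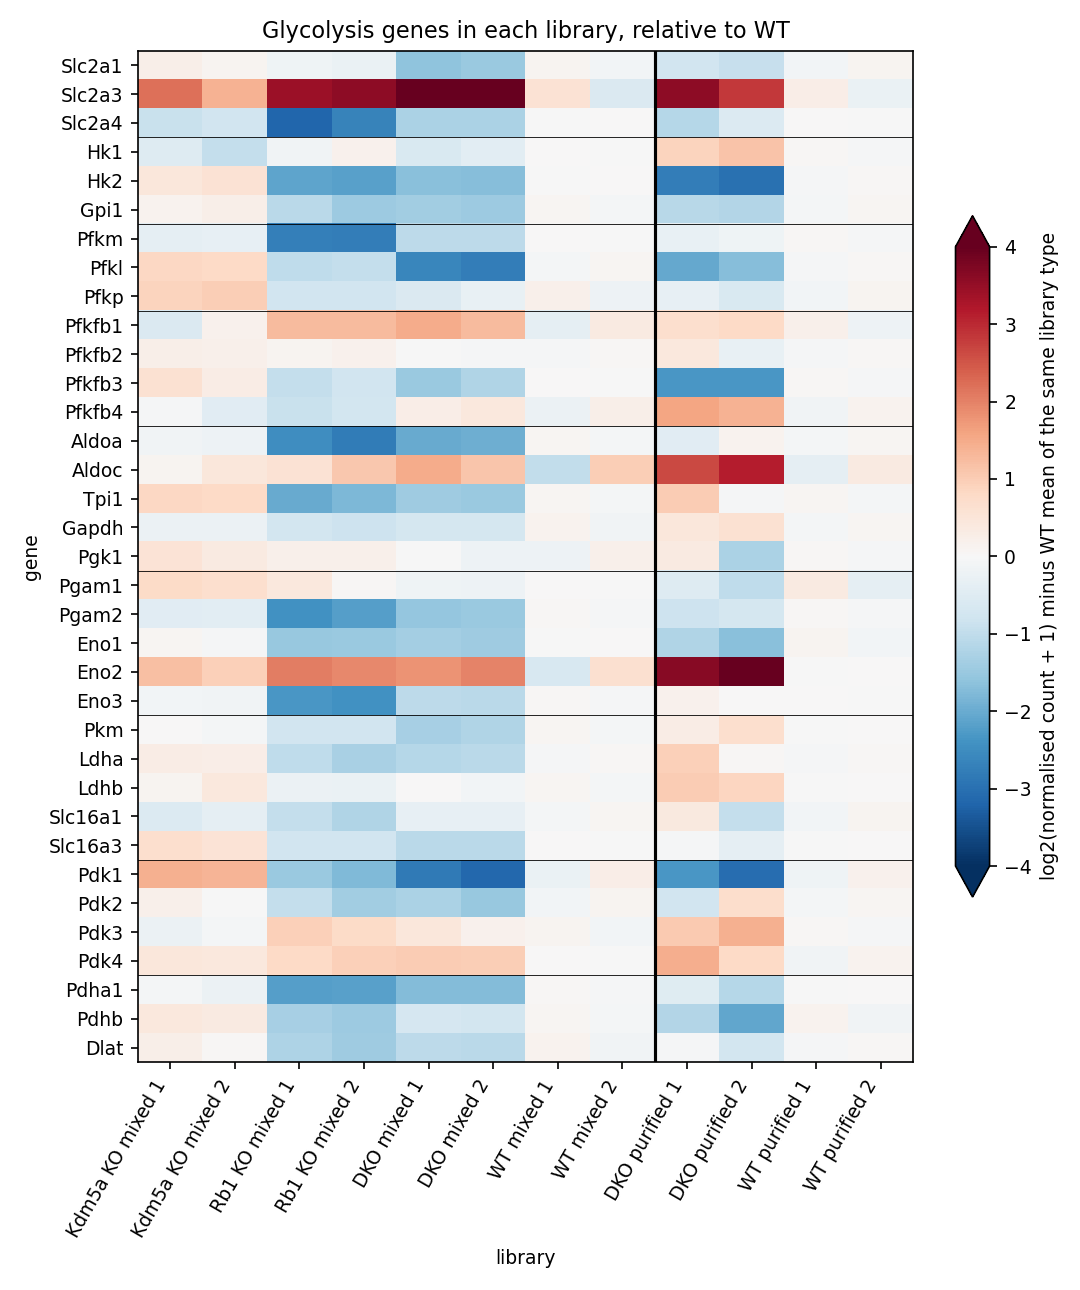
Rows are the 35 genes in pathway order and columns the 12 libraries, with colour showing log2(normalised count + 1) minus the mean of the WT libraries of the same type, saturating beyond 4 in either direction. Slc2a4, Hk2, Pfkm, Aldoa, Pgam2 and Eno3 are blue in both Rb1 KO columns, while Slc2a3 and Eno2 are red in every mutant column.

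In Rb1 KO the muscle carrier Slc2a4 fell and Slc2a3 rose, and in DKO Slc2a1 had its lowest values. Slc2a4 (ENSMUSG00000018566, chromosome 11), the insulin-responsive carrier GLUT4 of muscle and fat, had normalised counts of 679 and 744 in Kdm5a KO, 140.4 and 199 in Rb1 KO and 525 and 523 in DKO, against 1261 and 1274 in WT. The 4 groups did not overlap, with WT highest and Rb1 KO lowest. It fell by 2.91 ± 0.14 (adjusted p = 1.1e-09) in Rb1 KO and fell by 0.83 ± 0.14 (adjusted p = 8.2e-04) in Kdm5a KO. In DKO against Rb1 KO it rose by 1.64 ± 0.14 (adjusted p = 9.9e-07). Slc2a1 (ENSMUSG00000028645, chromosome 4), the GLUT1 carrier of most growing cells, had normalised counts of 1482 and 1349 in Kdm5a KO, 1105 and 1037 in Rb1 KO and 415 and 444 in DKO, against 1341 and 1175 in WT. DKO libraries were far below the others, with a change of -1.32 ± 0.09 (adjusted p = 1.6e-07) against Rb1 KO. The change in Rb1 KO against WT was -0.23 ± 0.09 (adjusted p = 0.0373). Slc2a3 (ENSMUSG00000003153, chromosome 6), the high-affinity GLUT3 carrier best known in neurons, had normalised counts of 28 and 15.4 in Kdm5a KO, 66.2 and 73.3 in Rb1 KO and 191 and 186 in DKO, against 8.38 and 3.20 in WT. The WT values came from as few as 3 reads. It rose in Rb1 KO by 3.49 ± 0.42 (adjusted p = 8.1e-06), in Kdm5a KO by 1.80 ± 0.42 (adjusted p = 0.00756) and in DKO against Rb1 KO by 1.43 ± 0.42 (adjusted p = 0.0144). Slc2a1 did not pass in Rb1 KO against WT without WT replicate 1, Rb1 KO replicate 1 or Rb1 KO replicate 2, with no filter on low values, or in a fit of the compared groups only (log2 -0.27 to -0.13, adjusted p 0.0517 to 0.255). Slc2a3 did not pass in Kdm5a KO against WT without Kdm5a KO replicate 1, or in a fit of the compared groups only (log2 1.39 to 1.80, adjusted p 0.0770 to 0.0779). Slc2a3 did not pass in DKO against Rb1 KO without Rb1 KO replicate 1, Rb1 KO replicate 2, DKO replicate 1 or DKO replicate 2 (log2 1.35 to 1.50, adjusted p 0.0528 to 0.0913). Slc2a1 shares 105 exonic bases with Gm12868 on the other strand, and the labels do not tell whether reads were counted by strand.

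Hexokinase phosphorylates glucose on entry, and in Rb1 KO its muscle form fell while its housekeeping form did not pass. Hk2 (ENSMUSG00000000628, chromosome 6), the insulin-regulated form of muscle, had normalised counts of 2507 and 2744 in Kdm5a KO, 424 and 409 in Rb1 KO and 577 and 567 in DKO, against 1816 and 1858 in WT. Both single mutants lay outside the WT range in opposite directions, with a change of 0.51 ± 0.08 (adjusted p = 3.6e-04) in Kdm5a KO and of -2.14 ± 0.08 (adjusted p = 7.6e-11) in Rb1 KO. DKO lay close above Rb1 KO, at 0.46 ± 0.08 (adjusted p = 3.2e-04). Hk1 (ENSMUSG00000037012, chromosome 10), the housekeeping form, had normalised counts of 839 and 629 in Kdm5a KO, 1089.7 and 1361 in Rb1 KO and 799 and 907 in DKO, against 1214 and 1209.9 in WT. Its change was 0.01 ± 0.13 (adjusted p = 0.966) in Rb1 KO, where the replicates straddled WT. It fell in Kdm5a KO (-0.74 ± 0.13, adjusted p = 0.00146) and in DKO against Rb1 KO (-0.52 ± 0.13, adjusted p = 0.00647). Gpi1 (ENSMUSG00000036427, chromosome 7), the isomerase of the next step, fell by 1.27 ± 0.11 (adjusted p = 3.9e-07) in Rb1 KO, with 713 and 547 in Rb1 KO, against 1588 and 1428 in WT. DKO, at 568 and 549, overlapped Rb1 KO (-0.16 ± 0.11, adjusted p = 0.261). Hk1 did not pass in DKO against Rb1 KO without Rb1 KO replicate 2 or DKO replicate 1 (log2 -0.43 to -0.36, adjusted p 0.0683 to 0.0899). Gpi1 passed in DKO against Rb1 KO without Rb1 KO replicate 2 (log2 -0.35, adjusted p = 0.0160). Gpi1 overlaps exons of Gm26762 on the other strand, and 18.5% of its 40-base windows also occur in other transcripts. Hk1 shares 157 exonic bases with Hk1os on the other strand, which had at most 43.1 in a mixed library.

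Phosphofructokinase, the committed step, is built from the muscle (Pfkm), liver (Pfkl) and platelet (Pfkp) subunits. Pfkm (ENSMUSG00000033065, chromosome 15) had normalised counts of 6972 and 7129 in Kdm5a KO, 1356 and 1319.6 in Rb1 KO and 4350.3 and 4393 in DKO, against 9203 and 8883 in WT. No group overlapped another, and Pfkm shares 18 exonic bases with Senp1 on the other strand. It fell by 2.76 ± 0.05 (adjusted p = 2.7e-13) in Rb1 KO and stood 1.71 ± 0.05 (adjusted p = 7.7e-11) higher in DKO than in Rb1 KO. Pfkl (ENSMUSG00000020277, chromosome 10) had normalised counts of 2667 and 2604 in Kdm5a KO, 739 and 780.2 in Rb1 KO and 242 and 219 in DKO, against 1414 and 1586 in WT. The 4 groups were again apart, but here DKO was the lowest, at -1.72 ± 0.09 (adjusted p = 1.0e-08) against Rb1 KO. Against Kdm5a KO, a comparison within a sex, it was -3.51 ± 0.09 (adjusted p = 1.0e-11). Kdm5a KO was the highest, at 0.81 ± 0.09 (adjusted p = 3.3e-05) against WT. The 300 bases of the Pfkl promoter, 250 before to 50 after the start (chr10:78009758-78010057, strand -, GRCm38.p6, RefSeq), are shown with 1 match to the core of a HIF1 element, ACGTG or GCGTG on either strand, in capitals.
Pfkl: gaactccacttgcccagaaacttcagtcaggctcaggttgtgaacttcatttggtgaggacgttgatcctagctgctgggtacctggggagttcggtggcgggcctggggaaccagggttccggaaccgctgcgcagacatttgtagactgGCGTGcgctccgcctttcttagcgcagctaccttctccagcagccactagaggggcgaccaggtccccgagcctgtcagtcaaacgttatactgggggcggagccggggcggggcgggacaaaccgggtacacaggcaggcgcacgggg
Pfkp (ENSMUSG00000021196, chromosome 13) had normalised counts of 2138 and 2253 in Kdm5a KO, 666 and 664 in Rb1 KO and 769 and 922 in DKO, against 1319.7 and 986 in WT. It rose by 0.94 ± 0.12 (adjusted p = 1.4e-04) in Kdm5a KO and fell by 0.78 ± 0.12 (adjusted p = 8.7e-05) in Rb1 KO. Its difference in DKO against Rb1 KO was 0.34 ± 0.12 (adjusted p = 0.0367). Pfkp did not pass in DKO against Rb1 KO without Rb1 KO replicate 1, Rb1 KO replicate 2 or DKO replicate 2, or with no filter on low values (log2 0.21 to 0.34, adjusted p 0.0762 to 0.299). Pfkp shares 748 exonic bases with Pitrm1 on the other strand, and reads of that overlap cannot be told apart.

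The bifunctional enzymes Pfkfb1 to Pfkfb4 make or remove the sugar bisphosphate that activates phosphofructokinase, Pfkfb3 being the strongly kinase-biased form. Pfkfb3 (ENSMUSG00000026773, chromosome 2) had normalised counts of 775 and 623 in Kdm5a KO, 261 and 294 in Rb1 KO and 181 and 219 in DKO, against 508 and 499 in WT. Values were lowest in DKO, and the gene fell by 0.86 ± 0.14 (adjusted p = 1.2e-04) in Rb1 KO. Its change was -0.47 ± 0.14 (adjusted p = 0.0145) in DKO against Rb1 KO and 0.46 ± 0.14 (adjusted p = 0.0278) in Kdm5a KO. Pfkfb4 (ENSMUSG00000025648, chromosome 9) had normalised counts of 224 and 169 in Kdm5a KO, 124 and 139 in Rb1 KO and 279 and 311 in DKO, against 196 and 274 in WT. It fell by 0.81 ± 0.20 (adjusted p = 0.00242) in Rb1 KO and was 1.16 ± 0.20 (adjusted p = 3.6e-04) higher in DKO than in Rb1 KO. DKO libraries lay above both WT libraries, with 0.34 ± 0.20 (adjusted p = 0.138) against WT, which did not pass. Pfkfb1 (ENSMUSG00000025271, chromosome X), the liver and muscle gene, was low everywhere (49.7 to 215) and rose by 1.27 ± 0.29 (adjusted p = 0.00150) in Rb1 KO. Pfkfb2 (ENSMUSG00000026409, chromosome 1), the heart form, stayed between 267 and 326 and did not pass in any mixed comparison, with 0.15 ± 0.12 (adjusted p = 0.286) in Rb1 KO. Pfkfb3 did not pass in Kdm5a KO against WT without WT replicate 1, WT replicate 2 or Kdm5a KO replicate 1, or with no filter on low values (log2 0.31 to 0.48, adjusted p 0.0503 to 0.231). Pfkfb3 did not pass in DKO against Rb1 KO without Rb1 KO replicate 2 or DKO replicate 1 (log2 -0.39 to -0.34, adjusted p 0.0997 to 0.153). Pfkfb4 passed in DKO against WT without WT replicate 2 (log2 0.58, adjusted p = 0.0274). Pfkfb2 passed in DKO against Kdm5a KO with upper-quartile scaling (log2 -0.30, adjusted p = 0.0445). Pfkfb1 and Pfkfb2 overlap exons of Apex2 and Yod1 on the other strand.

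Aldolase A and triose phosphate isomerase fell steeply in Rb1 KO, Gapdh fell less, and Pgk1 did not pass. Aldoa (ENSMUSG00000030695, chromosome 7), which splits the hexose bisphosphate, had normalised counts of 9048 and 8668 in Kdm5a KO, 1753 and 1420.1 in Rb1 KO and 2472 and 2559 in DKO, against 10425 and 9390.0 in WT. The 4 groups were apart, though Aldoa did not pass in Kdm5a KO against WT. The change was -2.65 ± 0.09 (adjusted p = 3.0e-11) in Rb1 KO against WT and 0.67 ± 0.09 (adjusted p = 3.4e-05) in DKO against Rb1 KO. Tpi1 (ENSMUSG00000023456, chromosome 6), which interconverts the triose phosphates, had normalised counts of 2579 and 2556 in Kdm5a KO, 363 and 415 in Rb1 KO and 539.7 and 521 in DKO, against 1530.3 and 1386 in WT. Kdm5a KO lay well above WT (0.82 ± 0.09, adjusted p = 3.3e-05) and Rb1 KO well below it (-1.90 ± 0.09, adjusted p = 8.4e-10). DKO lay slightly above Rb1 KO (0.45 ± 0.09, adjusted p = 0.00109). Gapdh (ENSMUSG00000057666, chromosome 6), the first oxidation step and a common reference gene, had normalised counts of 559 and 555 in Kdm5a KO, 393 and 365 in Rb1 KO and 402 and 399.8 in DKO, against 729 and 589 in WT. It fell by 0.79 ± 0.11 (adjusted p = 4.3e-05) in Rb1 KO. Pgk1 (ENSMUSG00000062070, chromosome X), which makes the first ATP of the pathway, had normalised counts of 417 and 368 in Kdm5a KO, 329 and 334 in Rb1 KO and 283 and 248 in DKO, against 251 and 330.4 in WT. It did not pass in Rb1 KO (0.20 ± 0.15, adjusted p = 0.243) and rose in Kdm5a KO (0.44 ± 0.15, adjusted p = 0.0449). Aldoc (ENSMUSG00000017390, chromosome 11) had 1.2 to 11 in mixed libraries. Gapdh passed in Kdm5a KO against WT without WT replicate 2 (log2 -0.39, adjusted p = 0.0300). Pgk1 did not pass in Kdm5a KO against WT without WT replicate 1, Kdm5a KO replicate 1 or Kdm5a KO replicate 2, with no filter on low values, by DESeq2, with a replicate block, or in a fit of the compared groups only (log2 0.25 to 0.53, adjusted p 0.0527 to 0.264). Pgk1 passed in Rb1 KO against WT without WT replicate 2 (log2 0.40, adjusted p = 0.0340). Gapdh shares 68 exonic bases with Iffo1 on the other strand, which had 2506 and 2579 in Rb1 KO, against 5838 and 5725 in WT. In purified libraries Iffo1 had 13122 and 16984 in DKO, against 19057 and 17311 in WT. Gapdh itself had 437 and 492 in purified DKO, against 305 and 338 in purified WT. Iffo1 was thus far above Gapdh in each of these libraries, and reads of the overlap cannot be told apart. Aldoa and Tpi1 also overlap genes on the other strand, Fam57b and Spsb2, by 25 and 34 bases. Near copies limit these levels too: 54.3% of the 40-base windows of Pgk1 and 26.7% of those of Gapdh also occur in other transcripts, Gapdh in 265 pseudogenes.

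Muscle mutase and beta-enolase were highest in WT and lowest in Rb1 KO. Pgam2 (ENSMUSG00000020475, chromosome 11) had normalised counts of 1021 and 1044 in Kdm5a KO, 261 and 303 in Rb1 KO and 478 and 495 in DKO, against 1423 and 1356 in WT. Eno3 (ENSMUSG00000060600, chromosome 11) had normalised counts of 12426 and 12093 in Kdm5a KO, 2684 and 2475 in Rb1 KO and 6414 and 6342 in DKO, against 13880.2 and 12878 in WT. In both genes the 4 groups did not overlap, in the order WT, Kdm5a KO, DKO and Rb1 KO from the top. In Kdm5a KO against WT Pgam2 fell, and Eno3 did not pass. In Rb1 KO Pgam2 fell by 2.30 ± 0.10 (adjusted p = 3.1e-10) and Eno3 fell by 2.37 ± 0.06 (adjusted p = 2.2e-12). In DKO against Rb1 KO Pgam2 rose by 0.79 ± 0.10 (adjusted p = 2.3e-05) and Eno3 by 1.31 ± 0.06 (adjusted p = 1.8e-09). Both promoters, 250 bases before to 50 after the start (Pgam2 at chr11:5803747-5804046, strand -, and Eno3 at chr11:70656926-70657225, strand +, GRCm38.p6, RefSeq), are shown because MyoD, the factor given to all cells, binds E-boxes. Capitals mark CANNTG, the general E-box, of which Pgam2 holds 5 and Eno3 2. Each printed promoter has only 1 kind of motif in capitals. The Pfkl window above also holds 3 CANNTG, and the Pdk1 window printed below holds 1. ACGTG or GCGTG has 1 match in the Eno3 window and 0 in that of Pgam2.
Pgam2: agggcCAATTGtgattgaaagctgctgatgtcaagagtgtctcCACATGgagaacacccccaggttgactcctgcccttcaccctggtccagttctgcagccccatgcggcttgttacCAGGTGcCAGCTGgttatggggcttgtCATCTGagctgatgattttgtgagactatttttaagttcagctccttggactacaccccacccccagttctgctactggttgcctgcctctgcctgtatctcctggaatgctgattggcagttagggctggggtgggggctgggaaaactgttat
Eno3: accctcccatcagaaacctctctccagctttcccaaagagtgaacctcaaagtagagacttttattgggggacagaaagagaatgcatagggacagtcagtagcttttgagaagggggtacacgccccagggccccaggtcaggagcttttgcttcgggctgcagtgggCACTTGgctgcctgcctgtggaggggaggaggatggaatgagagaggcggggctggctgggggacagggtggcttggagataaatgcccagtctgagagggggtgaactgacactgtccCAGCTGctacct
CANNTG was present in 69.2% of 52 promoter windows of the 33 matched genes and in 72.3% of all 32851 windows of that length. CAGCTG was present in 15.4% of the 52 windows and 16.3% of all, and it counts among the CANNTG matches as well. A match is a description of letters, not a site of binding. The MEF2 motif was found in 3.85% of the 52 windows (a Pgam2 and a Pfkfb1 window) and 3.19% of all. Of the other forms of these steps, Eno1 (ENSMUSG00000063524, chromosome 4) had normalised counts of 1639 and 1488 in Kdm5a KO, 546 and 558 in Rb1 KO and 604 and 583 in DKO, against 1542 and 1553 in WT. It fell by 1.49 ± 0.08 (adjusted p = 2.9e-09) in Rb1 KO and did not pass in DKO against Rb1 KO (0.11 ± 0.08, adjusted p = 0.297). Eno2 (ENSMUSG00000004267, chromosome 6), the neuronal gamma-enolase, had normalised counts of 76.0 and 63.0 in Kdm5a KO, 138 and 127 in Rb1 KO and 115 and 130.0 in DKO, against 20.3 and 51.2 in WT. It rose by 2.00 ± 0.35 (adjusted p = 2.2e-04) in Rb1 KO, by 1.89 ± 0.35 (adjusted p = 3.9e-04) in DKO against WT and by 1.07 ± 0.35 (adjusted p = 0.0388) in Kdm5a KO. Its WT replicates lay apart: the Rb1 KO change was 1.35 without WT replicate 1 and 2.64 without WT replicate 2, and that in DKO was 1.24 and 2.53. Pgam1 (ENSMUSG00000011752, chromosome 19) had normalised counts of 209 and 197 in Kdm5a KO, 166 and 128 in Rb1 KO and 108 and 107 in DKO, against 124 and 123 in WT. It rose by 0.71 ± 0.19 (adjusted p = 0.0140) in Kdm5a KO and did not pass in Rb1 KO (0.24 ± 0.19, adjusted p = 0.277). Eno2 did not pass in Kdm5a KO against WT without WT replicate 1, Kdm5a KO replicate 1 or Kdm5a KO replicate 2, with no filter on low values, or in a fit of the compared groups only (log2 0.43 to 1.21, adjusted p 0.0825 to 0.257). Pgam1 did not pass in Kdm5a KO against WT without Kdm5a KO replicate 1 or Kdm5a KO replicate 2 (log2 0.67 to 0.75, adjusted p 0.0507 to 0.0780). Pgam1 passed in DKO against Rb1 KO without Rb1 KO replicate 2 (log2 -0.62, adjusted p = 0.0338). Of their 40-base windows, Pgam1 shares 36.7% and Eno1 27.3% with other transcripts, whereas Pgam2 and Eno3 share none.

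**Figure D2:**
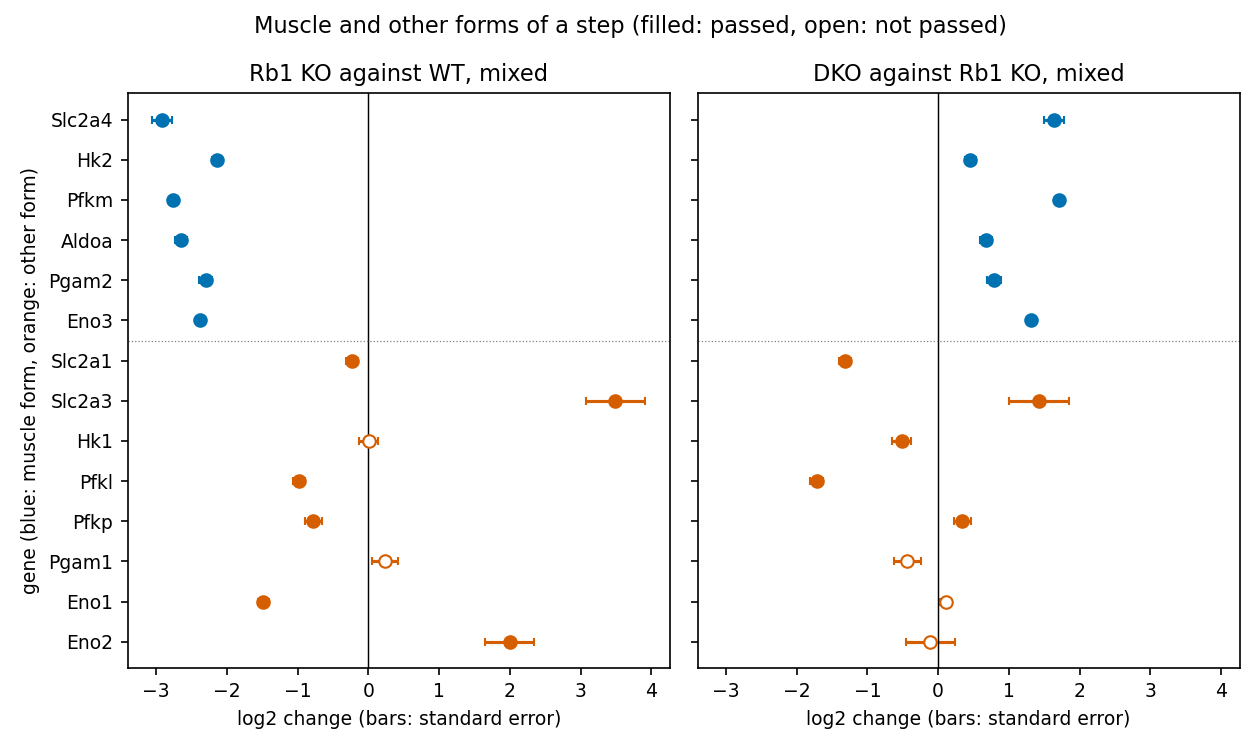
Each point is the log2 change of a gene with its standard error, blue for 6 forms abundant in muscle and orange for 8 other forms of the same steps, in Rb1 KO against WT and in DKO against Rb1 KO. The blue points lie left of 0 in the left panel and right of 0 in the right panel, and the orange points lie on both sides in each. For Aldoa no other form is shown, since Aldoc was not tested in mixed libraries.

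At the end of the pathway Pkm and Ldha fell in Rb1 KO and Ldhb did not pass. Pkm (ENSMUSG00000032294, chromosome 9), pyruvate kinase of muscle and of growing cells, whose splice forms cannot be separated here, had normalised counts of 6924 and 6447 in Kdm5a KO, 4024 and 4069 in Rb1 KO and 2729 and 2954 in DKO, against 7237 and 6504 in WT. It fell by 0.76 ± 0.06 (adjusted p = 2.7e-07) in Rb1 KO and again in DKO against Rb1 KO (-0.51 ± 0.06, adjusted p = 3.2e-05). Ldha (ENSMUSG00000063229, chromosome 7), which turns pyruvate into lactate, had normalised counts of 4512 and 4354 in Kdm5a KO, 1803 and 1487 in Rb1 KO and 1655 and 1711 in DKO, against 3548 and 3755 in WT. Its change was -1.16 ± 0.08 (adjusted p = 4.1e-08) in Rb1 KO and 0.28 ± 0.08 (adjusted p = 0.0220) in Kdm5a KO. Rb1 KO and DKO overlapped (0.04 ± 0.08, adjusted p = 0.720). Ldhb (ENSMUSG00000030246, chromosome 6), the heart form, had 253 to 405 over the mixed libraries, with -0.25 ± 0.14 (adjusted p = 0.115) in Rb1 KO. Of the lactate carriers, Slc16a3 (ENSMUSG00000025161, chromosome 11), the MCT4 exporter of glycolytic muscle, had normalised counts of 3050.2 and 2824 in Kdm5a KO, 1130.2 and 1129 in Rb1 KO and 915 and 922 in DKO, against 1965 and 1897 in WT. Slc16a1 (ENSMUSG00000032902, chromosome 3), the widely used MCT1 carrier, had normalised counts of 1229.8 and 1392 in Kdm5a KO, 928 and 777 in Rb1 KO and 1422 and 1427 in DKO, against 1712 and 1875 in WT. In Kdm5a KO Slc16a3 rose (0.60 ± 0.07, adjusted p = 3.7e-05) and Slc16a1 fell (-0.45 ± 0.09, adjusted p = 0.00366). In DKO against Rb1 KO Slc16a3 fell (-0.30 ± 0.07, adjusted p = 0.00253) and Slc16a1 rose (0.75 ± 0.09, adjusted p = 3.3e-05). Both fell in Rb1 KO against WT, with -0.77 ± 0.07 (adjusted p = 3.0e-07) for Slc16a3 and -1.08 ± 0.09 (adjusted p = 3.7e-07) for Slc16a1. Ldha did not pass in Kdm5a KO against WT without WT replicate 1, Kdm5a KO replicate 1 or Kdm5a KO replicate 2, or with no filter on low values (log2 0.24 to 0.31, adjusted p 0.0511 to 0.126). Ldhb passed in Rb1 KO against WT with upper-quartile scaling (log2 -0.39, adjusted p = 0.0235). The windows shared with other transcripts were 30.0% in Pkm, 27.0% in Ldhb and 14.1% in Ldha.

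The 4 pyruvate dehydrogenase kinases, which inactivate the complex by phosphorylation, split in Rb1 KO: Pdk1 and Pdk2 fell, and Pdk3 and Pdk4 rose. Pdk1 (ENSMUSG00000006494, chromosome 2) had normalised counts of 2632 and 2482 in Kdm5a KO, 344 and 287 in Rb1 KO and 136 and 109 in DKO, against 808 and 1173 in WT. No groups overlapped, with Kdm5a KO at the top and DKO at the bottom. Against WT the change was 1.39 ± 0.16 (adjusted p = 6.5e-05) in Kdm5a KO and -1.63 ± 0.16 (adjusted p = 1.4e-06) in Rb1 KO. In DKO it was -1.36 ± 0.16 (adjusted p = 2.2e-05) against Rb1 KO and -4.38 ± 0.16 (adjusted p = 2.4e-10) against Kdm5a KO, the comparison with Kdm5a KO being within a sex. Of its 2 RefSeq promoter windows (GRCm38.p6), the one at chr2:71872974-71873273, strand +, is shown with 2 matches to ACGTG or GCGTG on either strand in capitals, since Pdk1 is a known HIF1 target. The other window, at chr2:71874654-71874953, strand +, held 0 matches.
Pdk1: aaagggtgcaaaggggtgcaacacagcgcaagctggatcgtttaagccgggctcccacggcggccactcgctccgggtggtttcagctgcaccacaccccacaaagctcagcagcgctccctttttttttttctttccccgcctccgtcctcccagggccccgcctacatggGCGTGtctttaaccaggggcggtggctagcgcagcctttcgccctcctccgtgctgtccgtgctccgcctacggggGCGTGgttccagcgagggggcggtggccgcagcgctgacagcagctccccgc
ACGTG or GCGTG was present in 73.1% of the 52 windows and in 43.8% of all windows. The E2F letters TTTGGCGC, TTTCCCGC, TTTGCCGC or TTTCGCGC, on either strand, were in 0 of the 52 and in 2.26% of all. Pdk2 (ENSMUSG00000038967, chromosome 11), common in muscle and heart, had normalised counts of 196 and 170.1 in Kdm5a KO, 87.8 and 64.3 in Rb1 KO and 70.0 and 59.7 in DKO, against 160.3 and 183 in WT. It fell by 1.18 ± 0.22 (adjusted p = 3.9e-04) in Rb1 KO. Pdk3 (ENSMUSG00000035232, chromosome X), another of the kinases, had normalised counts of 463 and 514 in Kdm5a KO, 1044 and 924 in Rb1 KO and 734 and 609.6 in DKO, against 578 and 504 in WT. Rb1 KO was highest (0.86 ± 0.12, adjusted p = 2.3e-05 against WT), and DKO lay below it (-0.55 ± 0.12, adjusted p = 0.00181). Pdk4 (ENSMUSG00000019577, chromosome 6), the kinase induced by fasting, had normalised counts of 610.4 and 603 in Kdm5a KO, 772 and 871 in Rb1 KO and 904 and 878 in DKO, against 449 and 441 in WT. WT was the lowest group. It rose by 0.88 ± 0.09 (adjusted p = 1.7e-06) in Rb1 KO, by 0.45 ± 0.09 (adjusted p = 0.00305) in Kdm5a KO and by 1.0 ± 0.09 (adjusted p = 6.0e-07) in DKO against WT.

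Pdha1, Pdhb and Dlat, 3 subunits of the pyruvate dehydrogenase complex, fell in Rb1 KO. Pdha1 (ENSMUSG00000031299, chromosome X), the catalytic alpha subunit, had normalised counts of 8409.9 and 7515 in Kdm5a KO, 1936 and 1969.5 in Rb1 KO and 2652 and 2675 in DKO, against 9264 and 8578 in WT. It fell by 2.19 ± 0.06 (adjusted p = 1.1e-11) in Rb1 KO. DKO was a little above Rb1 KO (0.45 ± 0.06, adjusted p = 7.6e-05). Pdhb (ENSMUSG00000021748, chromosome 14), the beta subunit, had normalised counts of 496 and 478 in Kdm5a KO, 149.9 and 136 in Rb1 KO and 235 and 225 in DKO, against 395 and 355 in WT. Its change was -1.39 ± 0.13 (adjusted p = 7.3e-07) in Rb1 KO, 0.69 ± 0.13 (adjusted p = 8.5e-04) in DKO against Rb1 KO and 0.38 ± 0.13 (adjusted p = 0.0478) in Kdm5a KO. Dlat (ENSMUSG00000000168, chromosome 9), the transacetylase core, had normalised counts of 1752 and 1522 in Kdm5a KO, 631 and 553 in Rb1 KO and 714 and 702 in DKO, against 1624 and 1348 in WT. It fell by 1.32 ± 0.11 (adjusted p = 1.5e-07) in Rb1 KO, and the change in DKO against Rb1 KO was 0.26 ± 0.11 (adjusted p = 0.0590). Pdha1 passed in Kdm5a KO against WT without WT replicate 2 or Kdm5a KO replicate 1 (log2 -0.25 to -0.22, adjusted p 0.0335 to 0.0473). Pdhb did not pass in Kdm5a KO against WT without WT replicate 2, Kdm5a KO replicate 1 or Kdm5a KO replicate 2, with no filter on low values, by DESeq2, or with a replicate block (log2 0.30 to 0.41, adjusted p 0.0503 to 0.178). Dlat passed in DKO against Rb1 KO without Rb1 KO replicate 1, with a minimum mean of 100, with TMM scaling, with upper-quartile scaling, by edgeR, by DESeq2, with a replicate block, or in a fit of the compared groups only (log2 0.26 to 0.36, adjusted p 0.0162 to 0.0491). Pdha1 shares 603 exonic bases with Map3k15 on the other strand. Map3k15 had 1123 and 1156 in Rb1 KO, against 4058 and 3638 in WT, so reads of the overlap cannot be told apart.

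**Figure D3:**
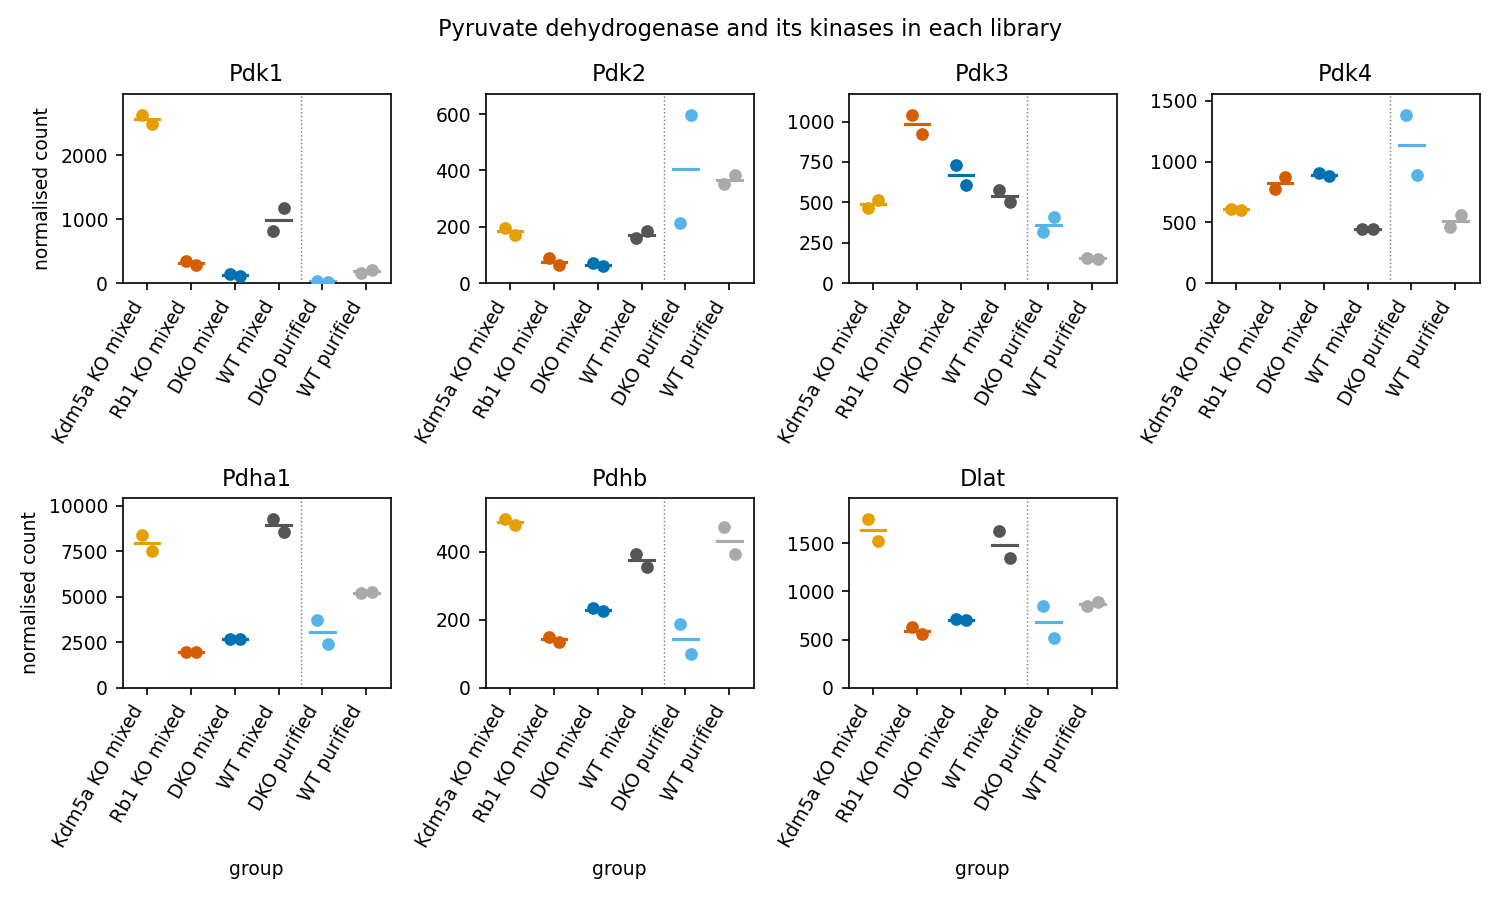
Points are normalised counts of each library for the 4 pyruvate dehydrogenase kinases and 3 subunits of the complex, with a bar at the mean of 2 libraries and a dotted line between mixed and purified libraries. Pdk1 is highest in Kdm5a KO and the 3 subunits are lower in Rb1 KO and DKO than in mixed WT.

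Set against each other within a library and per exonic length, the forms of a step gave shares in which the library's scaling cancels. Slc2a4 made up 31.4% and 35.6% of the level of the 3 glucose transporters in Kdm5a KO, 11.1% and 15.8% in Rb1 KO and 51.1% and 49.7% in DKO, against 48.6% and 52.2% in WT. DKO and WT overlapped, although the level of Slc2a4 was lower in DKO. Without a length correction the shares did not overlap, with 46.4% and 45.3% in DKO, against 48.3% and 52.0% in WT. Hk2 held 81.0% and 86.2% of hexokinase in Kdm5a KO, 35.7% and 30.0% in Rb1 KO and 50.8% and 47.2% in DKO, against 68.1% and 68.7% in WT. Pfkm held 78.9% and 79.3% of phosphofructokinase in Kdm5a KO, 71.7% and 70.4% in Rb1 KO and 93.3% and 92.8% in DKO, against 89.9% and 89.5% in WT. Its share in both DKO libraries was above that in WT. Pgam2 and Eno3 were the leading forms in every group. Pgam2 held 81.8% ± 4.33 in Rb1 KO, against 96.4% ± 0.0818 in WT, and Eno3 91.9% ± 0.424 in Rb1 KO, against 96.3% ± 0.262 in WT (SD, n = 2). Ldha was 75.2% ± 2.19 of lactate dehydrogenase in Rb1 KO and 73.0% ± 1.92 in DKO, against 85.0% ± 1.45 in WT. Pdk1 made up 43.8% ± 1.41 of the 4 kinases in Kdm5a KO, 5.93% ± 0.558 in Rb1 KO and 2.84% ± 0.219 in DKO, against 24.4% ± 5.61 in WT. The share of Pdk4 was 23.0% ± 0.0108 in Kdm5a KO, 34.3% ± 4.09 in Rb1 KO and 46.1% ± 2.76 in DKO, against 24.4% ± 1.06 in WT. Of the 2 lactate carriers, Slc16a3 held 65.1% ± 3.22 in Kdm5a KO, 52.5% ± 3.09 in Rb1 KO and 34.9% ± 0.0679 in DKO, against 47.3% ± 2.21 in WT. Aldoa held 99.6% ± 0.166 of aldolase in Rb1 KO, against 99.96% ± 0.0429 in WT. The shares are descriptions, and no test of them was run. Per kilobase, Eno3 had the highest counted level of the 35 genes in all 6 groups, at 1483 in Rb1 KO and 3668 in DKO, against 7693 in WT cultures. Levels of genes that share windows or exons with others, such as Gapdh at 159 in WT cultures, limit this ranking.

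**Figure D4:**
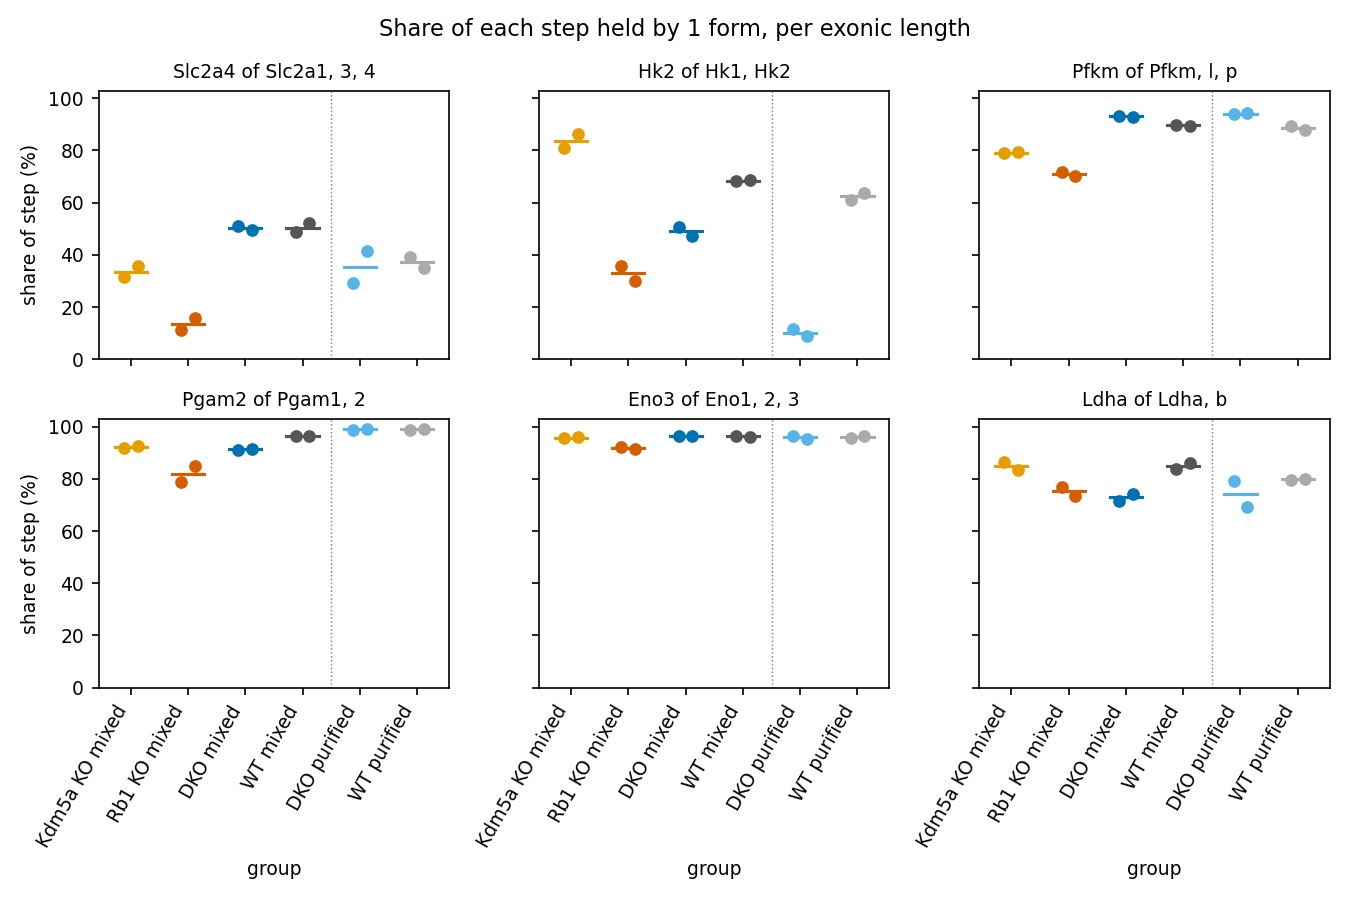
Points are libraries and bars the mean of 2, for the share that 1 form holds of its step per exonic length, in percent, with mixed groups left of the dotted line and purified groups right of it. Slc2a4, Hk2, Pfkm, Pgam2 and Eno3 have their lowest mixed share in Rb1 KO, and Ldha has it in DKO.

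Grouped by form, Rb1 KO against WT had 6 of 6 muscle forms lower and none higher, while of 8 other forms of the same steps 4 fell, 2 rose and 2 did not pass. DKO against Rb1 KO had 6 of 6 muscle forms higher, and of the 8 others 2 rose, 3 fell and 3 did not pass. In Kdm5a KO against WT, 1 of 6 rose, 3 fell and 2 did not pass, and of the 8 others 5 rose, 1 fell and 2 did not pass. Among all genes tested, 71.1% were called in Rb1 KO against WT (36.8% rose, 34.3% fell), near the 75.0% of the 8 others. The shares were 47.3% in DKO against Rb1 KO (23.1% rose, 24.2% fell) and 27.2% in Kdm5a KO against WT (13.4% rose, 13.8% fell). Aldoa, counted among the 6, held 99.6% of aldolase per exonic length in Rb1 KO and 99.96% in WT cultures. Its other form Aldoc was not tested there, so the change of Aldoa is not one of a muscle form against another form. The split into forms follows textbook tissue patterns, was drawn with values known and was given no test. Slc16a3, Pdk2 and Pfkfb1, also tied to muscle above, were left out of the 6. In Rb1 KO against WT Slc16a3 and Pdk2 fell and Pfkfb1 rose. In DKO against Rb1 KO Slc16a3 fell, and Pdk2 and Pfkfb1 did not pass. DKO against WT had 5 rises, 24 falls and 5 genes that did not pass among 34, where 67.9% of all genes tested were called, with 34.0% that rose and 33.9% that fell. DKO against Kdm5a KO had 5 rises, 24 falls and 5 genes that did not pass, where 67.2% of all genes tested were called, with 33.7% that rose and 33.4% that fell. The interaction term is the change in DKO less the sum of the single changes. It gave 8 positive and 10 negative calls among 34, where 38.3% of all genes tested were called, 18.8% positive and 19.5% negative. Since both Kdm5a-deficient genotypes held Xist and both others Ddx3y, Kdm5a status cannot be told apart from sex in this term. The positive calls included Slc2a4 (2.48), Pfkm (2.07), Eno3 (1.43) and Pgam2 (1.22), and the negative ones Pdk1 (-2.76), Pfkl (-2.53) and Slc2a1 (-1.49).

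Genes around the pathway were listed as well, and their counts in Rb1 KO against WT stand beside 36.8% that rose and 34.3% that fell among all genes tested. Of 9 partners of pyruvate dehydrogenase tested, 7 fell (77.8%) and 1 rose in Rb1 KO, with a median log2 change of -0.87. Dld, the shared dehydrogenase subunit, fell by 1.51 ± 0.07 (adjusted p = 1.3e-09), with 1219 and 1153 in Rb1 KO, against 3147 and 3622 in WT. Pdhx, the docking subunit, fell by 0.75 ± 0.08 (adjusted p = 3.6e-06) and the phosphatase Pdp1 fell by 0.50 ± 0.09 (adjusted p = 3.3e-04). Pdpr, the regulator of that phosphatase, rose by 1.28 ± 0.10 (adjusted p = 1.4e-07). Of 13 other carriers for entry and exit, 6 rose (46.2%) and 5 fell (38.5%). The mitochondrial pyruvate carrier fell in both subunits, Mpc1 (-1.05 ± 0.19, adjusted p = 2.7e-04) and Mpc2 (-0.78 ± 0.16, adjusted p = 7.2e-04). Bsg, the chaperone of lactate carriers, fell by 0.40 ± 0.05 (adjusted p = 5.8e-06). Slc2a6, a member of the GLUT family, fell by 3.49 ± 0.16 (adjusted p = 7.3e-10). The urate carrier Slc2a9 rose by 4.79 ± 0.34 (adjusted p = 4.3e-08) and the monocarboxylate carrier Slc16a7 by 5.19 ± 0.25 (adjusted p = 1.4e-09). In the list of pentose phosphate and side-branch genes 9 of 19 fell (47.4%) and 3 rose (15.8%), so that 63.2% were called, against 71.1% of all genes. The malate-aspartate shuttle enzymes Got1 (-2.39 ± 0.06, adjusted p = 4.3e-12) and Mdh1 (-1.56 ± 0.06, adjusted p = 1.4e-10) fell, as did Pgd of the pentose phosphate pathway (-1.64 ± 0.08, adjusted p = 1.8e-09). Of 5 rarer isozymes and accessory enzymes that passed the filter, of 13 listed, 2 fell and 1 rose. The mutarotase Galm changed by -1.41 ± 0.11 (adjusted p = 8.0e-08), the ADP-dependent glucokinase Adpgk by 0.43 ± 0.11 (adjusted p = 0.00353) and Bpgm, which makes 2,3-bisphosphoglycerate, by -0.37 ± 0.12 (adjusted p = 0.0141). Bpgm did not pass without WT replicate 1 or Rb1 KO replicate 1 (-0.28 to -0.27, adjusted p 0.10 to 0.108). Of 19 regulators 8 fell (42.1%) and 7 rose (36.8%), near the shares of all genes. Mef2c, a muscle transcription factor, fell by 3.56 ± 0.06 (adjusted p = 1.0e-13). Vhl, which marks HIF1 for destruction, fell by 1.70 ± 0.09 (adjusted p = 2.8e-09), and the oxygen sensor Egln1 rose by 1.14 ± 0.08 (adjusted p = 3.8e-08). Hif1a itself rose by 0.52 ± 0.05 (adjusted p = 4.6e-07), and Txnip, an inhibitor of glucose uptake, fell by 0.95 ± 0.13 (adjusted p = 1.9e-05).

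In purified myotubes the 2 DKO libraries differed from WT in 17 of 35 genes, 8 higher and 9 lower, where 39.6% of all genes tested were called, with 21.0% that rose and 18.6% that fell. Summed muscle markers were 204298 to 211581 in DKO, against 642784 to 657024 in WT. Summed cell cycle markers were 32834 to 43069 in DKO, against 1111 to 1184 in WT, and fibroblast markers were 24969 to 33716 in DKO, against 15384 to 18666 in WT. Adipocyte markers summed to 591 to 636 in DKO, against 2727 to 2809 in WT, and endothelial markers to 263 to 274 in DKO, against 67.0 to 89.4 in WT. Macrophage and blood markers summed to 426 to 1049 in DKO, against 128 to 153 in WT, with Adgre1 and both haemoglobin genes at 0. The part of these markers in the changes was not tested, and genotype cannot be told apart from sex here, since DKO libraries held Xist and WT libraries Ddx3y. A fit without a WT replicate took its spread from the 2 DKO libraries alone. A fit without a DKO replicate took it from the 2 WT libraries alone. Calls in such fits therefore do not weigh the spread of both groups. Slc2a3, Hk2 and Eno2 passed with either WT replicate left out. Hk2 had normalised counts of 405 and 349.5 in purified DKO, against 2677 and 2839 in purified WT, a change of -2.87 ± 0.20 (adjusted p = 0.00130). Eno2 had normalised counts of 476 and 817 in purified DKO, against 37.2 and 37.3 in purified WT, a change of 4.03 ± 0.34 (adjusted p = 0.00188). Slc2a3 had normalised counts of 211 and 126 in purified DKO, against 20.5 and 13.7 in purified WT, a change of 3.21 ± 0.43 (adjusted p = 0.00530). In each of these genes the groups were far apart. Pdk1 had normalised counts of 35.8 and 20.9 in purified DKO, against 162 and 205 in purified WT (-2.69 ± 0.39, adjusted p = 0.00656). Pfkl had normalised counts of 312 and 403 in purified DKO, against 1252 and 1364 in purified WT (-1.88 ± 0.22, adjusted p = 0.00401). Pfkfb3 had normalised counts of 60.2 and 59.6 in purified DKO, against 316 and 296 in purified WT (-2.33 ± 0.25, adjusted p = 0.00311). These 3 genes were lower in both DKO libraries than in either WT library. Hk1 was higher in DKO and had normalised counts of 4417 and 5184 in purified DKO, against 2429.7 and 2301 in purified WT (1.02 ± 0.19, adjusted p = 0.0136). Per exonic length Hk2 made up 11.6% and 8.79% of hexokinase in purified DKO, against 61.2% and 63.8% in purified WT. Aldoc, tested here with 35 of 35 genes, had normalised counts of 52.0 and 73.3 in purified DKO, against 5.58 and 9.94 in purified WT (2.89 ± 0.48, adjusted p = 0.00978). The other falls were Slc2a1 (-0.84), Gpi1 (-1.14), Pgam2 (-0.77), Eno1 (-1.45) and Pdhb (-1.64), and the other rises Pfkfb4 (1.48), Ldhb (0.94), Pdk3 (1.24) and Pdk4 (1.12). Of the 6 muscle forms Hk2 and Pgam2 passed, and Pfkm (-0.24 ± 0.19, adjusted p = 0.354), Aldoa (-0.15 ± 0.26, adjusted p = 0.653), Eno3 (0.10 ± 0.19, adjusted p = 0.706) and Slc2a4 (-0.84 ± 0.26, adjusted p = 0.0536) did not. Without WT replicate 1, Slc2a1 (-0.95), Hk1 (1.06), Gpi1 (-1.2), Pfkl (-1.94), Pfkfb3 (-2.28), Pfkfb4 (1.33), Aldoc (2.52), Pgam2 (-0.72), Eno1 (-1.34), Ldhb (0.91), Pdk3 (1.28), Pdk4 (0.99) and Pdhb (-1.50) did not pass, with adjusted p of 0.0552 to 0.367. Without WT replicate 2, Slc2a1 (-0.73), Hk1 (0.98), Gpi1 (-1.08), Pfkl (-1.82), Pfkfb4 (1.64), Pgam2 (-0.81), Eno1 (-1.56), Ldhb (0.96), Pdk1 (-2.52), Pdk3 (1.2), Pdk4 (1.26) and Pdhb (-1.77) did not pass, with adjusted p of 0.0629 to 0.350. With a replicate block, Pgam2 (-0.77) did not pass, with an adjusted p of 0.0509.

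Among the 18 genes without a call in purified myotubes were several whose DKO replicates lay far apart. Tpi1 had normalised counts of 842 and 407 in purified DKO, against 439 and 401 in purified WT (0.48 ± 0.38, adjusted p = 0.355). Ldha had normalised counts of 3044 and 1647 in purified DKO, against 1540.5 and 1629 in purified WT (0.50 ± 0.33, adjusted p = 0.273). In both, DKO replicate 1 was far above the other 3 libraries. Pgk1 had normalised counts of 215 and 69.1 in purified DKO, against 173 and 162 in purified WT (-0.45 ± 0.56, adjusted p = 0.547). Slc16a1 had normalised counts of 868 and 339 in purified DKO, against 605 and 712 in purified WT (-0.27 ± 0.47, adjusted p = 0.665). Pdk2 had normalised counts of 215 and 599 in purified DKO, against 352 and 384 in purified WT (-0.03 ± 0.51, adjusted p = 0.960). In Pgk1, Slc16a1 and Pdk2 the DKO replicates lay on either side of both WT libraries. Pdha1 had normalised counts of 3732 and 2384 in purified DKO, against 5176 and 5235 in purified WT (-0.80 ± 0.27, adjusted p = 0.0667). Pkm had normalised counts of 4127 and 5469.9 in purified DKO, against 3339.5 and 3454 in purified WT (0.48 ± 0.22, adjusted p = 0.135). In these genes the groups did not overlap and the test was not passed. Gapdh (0.53), Pfkp (-0.46), Pfkfb1 (0.73), Pfkfb2 (0.06), Pgam1 (-0.77), Slc16a3 (-0.21) and Dlat (-0.39) did not pass either. With upper-quartile scaling, Slc2a4 (-0.86) passed, with an adjusted p of 0.0487. With a replicate block, Slc2a4 (-0.84) and Pdha1 (-0.80) passed, with adjusted p of 0.0346 to 0.0482. Leaving out a DKO replicate left the spread to the WT libraries alone. A call gained there leaves out the spread of DKO, so only the changes are given. Without DKO replicate 1, the genes concerned were Slc2a4 (-0.56), Pfkp (-0.60), Gapdh (0.61), Pgk1 (-1.26), Pkm (0.69), Slc16a1 (-0.95), Slc16a3 (-0.35), Pdha1 (-1.13) and Dlat (-0.74). Without DKO replicate 2, they were Slc2a4 (-1.13), Pfkm (-0.31), Aldoa (-0.44), Tpi1 (1.0), Gapdh (0.44), Pkm (0.28), Ldha (0.94), Pdk2 (-0.77) and Pdha1 (-0.48). The change of Pdk2 had the opposite sign without DKO replicate 1, at 0.70.

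The DKO change itself differed between purified and mixed libraries in 19 of 35 genes, 17 with a higher and 2 with a lower value in purified myotubes, where 24.8% of all genes tested were called, 11.6% higher and 13.2% lower. Aldoa had a DKO change of -0.15 in purified and -1.98 in mixed libraries, a difference of 1.82 ± 0.25 (adjusted p = 6.9e-04). For Tpi1 the difference was 1.94 ± 0.37 (adjusted p = 0.00450), for Pkm 1.76 ± 0.19 (adjusted p = 1.9e-04), for Ldha 1.62 ± 0.32 (adjusted p = 0.00531) and for Hk1 1.53 ± 0.23 (adjusted p = 0.00127). In the other direction Hk2 differed by -1.19 ± 0.16 (adjusted p = 7.0e-04) and Pfkfb3 by -1.0 ± 0.24 (adjusted p = 0.0135). Purified and mixed libraries also differ in RNA selection, read length and a day of recovery, which cannot be told apart from purification. In both library types muscle and adipocyte markers summed lower in DKO than in WT, and cell cycle, fibroblast, macrophage and blood, and endothelial markers summed higher. Single markers did not all follow these sums. In mixed DKO against WT 67.9% of all genes tested were called. There 2 of 6 adipocyte markers were tested, of which 1 fell and 1 did not pass. Of 6 macrophage and blood markers 3 were tested, of which 2 rose and 1 fell. The part of the markers in the differences was not tested. Pfkfb3 did not pass in the difference between library types without DKO mixed replicate 2 or WT purified replicate 1 (log2 -0.95 to -0.86, adjusted p 0.0523 to 0.0691). Without DKO mixed replicate 2 the number of genes that differed was 12.

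**Figure D5:**
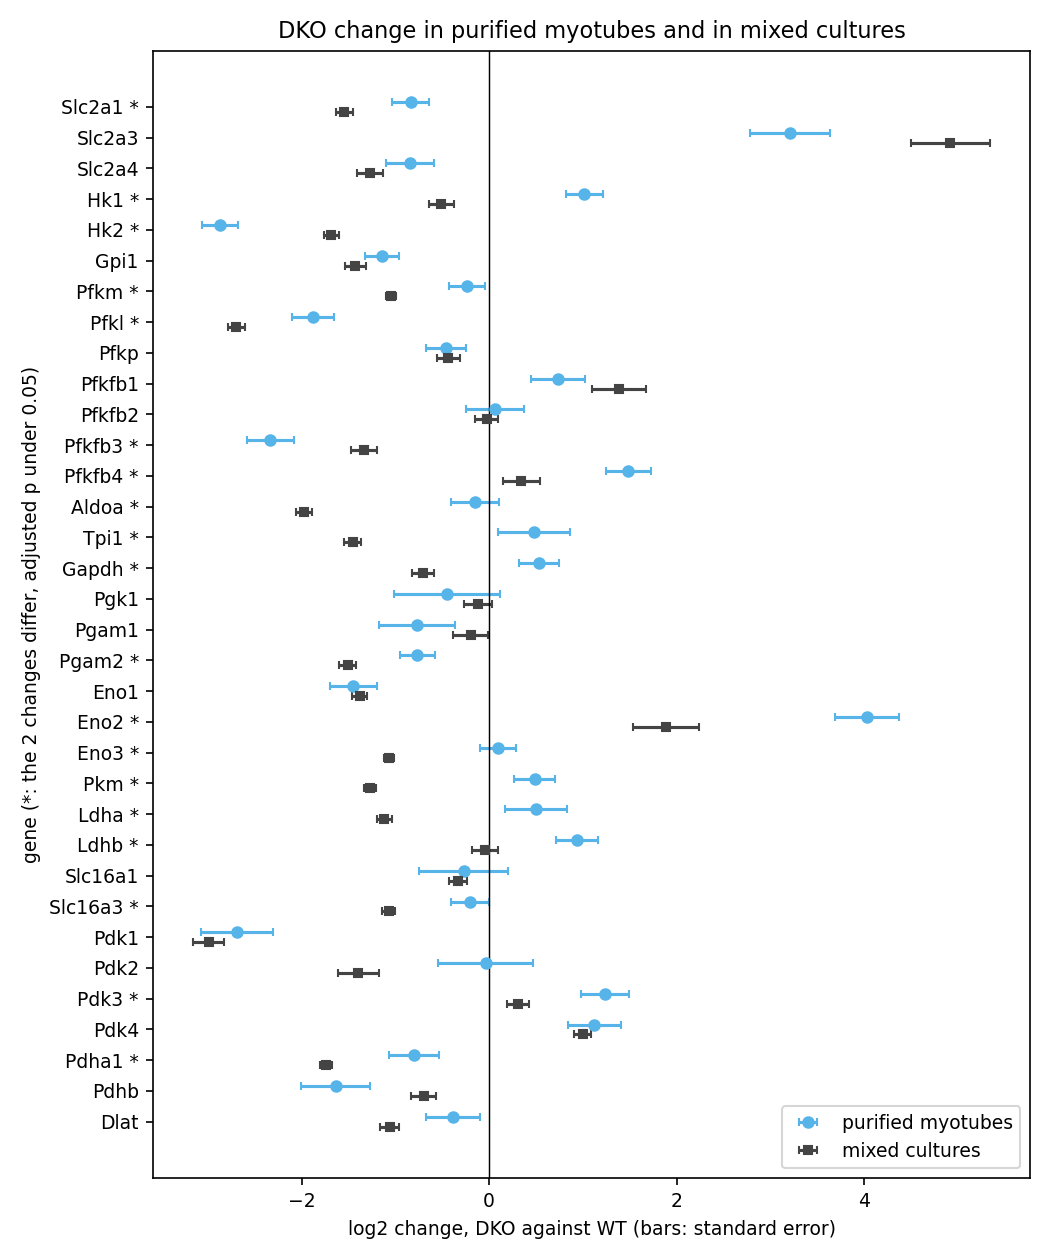
Points are log2 changes of DKO against WT with their standard errors, circles for purified myotubes and squares for mixed cultures, over 34 genes in pathway order (Aldoc, with no mixed test, is left out). Circles lie right of squares for Hk1, Aldoa, Tpi1, Pkm and Ldha, and left of them for Hk2 and Pfkfb3.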

How the data were processed

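RNA of 12 libraries in 6 groups of n = 2 was analysed. Each deposited value is a signal, a gene's reads over the library's size factor, as computed by the authors with DESeq after alignment with TopHat 1.2.0 to mm9, per the submitters' processing notes. The sources used here do not give the read counter, strand setting or annotation. Dividing each column by its smallest step recovered whole reads (100% of values within 0.01), which were used for depth and as an alternative input. Symbols, exonic lengths and exon overlaps came from GENCODE M21, and promoters from RefSeq (GRCm38.p6). No deposited column was left without a sample.

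Comparisons used limma 3.58.1 (R 4.3.3) with an intensity trend on log2(value + 1), two-sided, over genes with a mean of at least 10, with Benjamini-Hochberg adjustment over all of them and a threshold of 0.05. The 8 mixed libraries shared a fit, the 4 purified ones had their own, and the difference between library types used all 12. A share of a step is value per exonic base over the sum for its forms. Alternatives were edgeR 4.0.16, DESeq2 1.42.0, other pseudocounts, filters and scalings, a replicate block, a fit of the compared groups only and leaving out each library. All 35 genes are named; from the other lists, up to 3 genes with the smallest p in Rb1 KO against WT and Mpc1, Mpc2, Bsg, Dld, Pdhx, Pdp1, Hif1a and Txnip are named. The genes and lists were chosen with earlier results of these data known. The fits of Rb1 KO against WT and of purified DKO against WT were also run on simulated counts. Those counts had the same spread setting in every library, so the wider spread of purified DKO was not covered. Counting error limits genes of few reads, such as Slc2a3 and Aldoc in WT.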

Additional observations from a re-analysis of the deposited data

Results flagged for a closer look

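In 18 genes the effect of losing Rb1 differed between Kdm5a-deficient and Kdm5a-intact mixed cultures, by the interaction term of the limma fit (adjusted p under 0.05). Kdm5a status and sex cannot be told apart in this term. The log2 difference was positive, so that DKO was higher than the single changes add up to, for Slc2a4 (2.48), Pfkm (2.07), Pfkfb4 (1.41), Aldoa (0.83), Pgam2 (1.22), Eno3 (1.43), Slc16a1 (1.2) and Pdha1 (0.61). It was negative for Slc2a1 (-1.49), Pfkl (-2.53), Pfkp (-0.60), Pfkfb3 (-0.94), Tpi1 (-0.37), Pgk1 (-0.77), Pgam1 (-1.15), Pkm (-0.47), Slc16a3 (-0.90) and Pdk1 (-2.76). Pfkp did not pass in the interaction without Kdm5a KO replicate 2 or DKO replicate 1 (log2 -0.57 to -0.47, adjusted p 0.0601 to 0.0794). Tpi1 did not pass in the interaction without WT replicate 2, Kdm5a KO replicate 1, Kdm5a KO replicate 2, Rb1 KO replicate 2, DKO replicate 1 or DKO replicate 2, with no filter on low values, or with upper-quartile scaling (log2 -0.40 to -0.27, adjusted p 0.0531 to 0.108). Pgk1 did not pass in the interaction without Kdm5a KO replicate 1 or DKO replicate 2 (log2 -0.68 to -0.67, adjusted p 0.0543 to 0.0644).

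In 19 genes the DKO change differed between purified myotubes and mixed cultures, by the same kind of term over 12 libraries. DKO and WT also differ in sex in both library types. The log2 difference, purified minus mixed, was positive for Slc2a1 (0.71), Hk1 (1.53), Pfkm (0.81), Pfkl (0.82), Pfkfb4 (1.14), Aldoa (1.82), Tpi1 (1.94), Gapdh (1.24), Pgam2 (0.74), Eno2 (2.14), Eno3 (1.16), Pkm (1.76), Ldha (1.62), Ldhb (0.98), Slc16a3 (0.87), Pdk3 (0.93) and Pdha1 (0.94). It was negative for Hk2 (-1.19) and Pfkfb3 (-1.0). For Gapdh, reads of the bases shared with the more abundant Iffo1 cannot be told apart in either library type. Without WT mixed replicate 1, Slc2a1 (0.61), Pdk3 (0.83) and Pdha1 (0.88) did not pass, with adjusted p of 0.0711 to 0.0740. Without DKO mixed replicate 1, Slc2a1 (0.66), Pfkfb4 (1.06), Eno2 (2.06) and Pdha1 (0.93) did not pass, with adjusted p of 0.0647 to 0.0937. Without WT purified replicate 1, Slc2a1 (0.60), Pfkl (0.76), Pfkfb3 (-0.95), Pfkfb4 (0.98), Eno2 (2.14) and Pdha1 (0.93) did not pass, with adjusted p of 0.0523 to 0.0895. Without WT mixed replicate 2, Pfkl (0.74) and Pfkfb4 (0.90) did not pass, with adjusted p of 0.0577 to 0.0840. Without DKO mixed replicate 2, Pfkl (0.75), Pfkfb3 (-0.86), Pfkfb4 (1.22), Eno2 (2.23), Ldhb (0.91), Pdk3 (0.79) and Pdha1 (0.95) did not pass, with adjusted p of 0.0533 to 0.0878. Without WT purified replicate 2, Eno2 (2.15), Pdk3 (0.89) and Pdha1 (0.95) did not pass, with adjusted p of 0.0534 to 0.0611.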

How the results depend on the processing

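Over 3991 pairs of a gene's change and an alternative, 3792 kept their side of the threshold, 125 lost and 72 gained a call, and 2 passed with the sign opposite to that with all libraries. Of the 3792, 55 changed sign, none of them with a call in either fit. Genes with no change of call under any alternative tried numbered 31 of 34 in Rb1 KO against WT, 30 of 34 in DKO against WT, 26 of 34 in DKO against Rb1 KO, 26 of 34 in DKO against Kdm5a KO, 25 of 34 in Kdm5a KO against WT, 25 of 34 in the interaction, 18 of 35 in the difference between library types and 7 of 35 in purified DKO against WT. Leaving out libraries in turn gave, for all genes called, 3057 to 4251 (all libraries 4685) in Kdm5a KO against WT, 1983 to 11574 (all libraries 6598) in purified DKO against WT and 2471 to 8989 (all libraries 4292) in the difference between library types. Among the 35 genes it gave 4 to 27 (all libraries 17) in purified DKO against WT and 12 to 25 (all libraries 19) in the difference between library types. Each such fit of purified DKO against WT took its spread from the group that kept 2 libraries. Its counts therefore do not weigh the spread of both groups. Pdk2 (-0.03) in purified DKO against WT ranged from -0.77 without DKO replicate 2 to 0.70 without DKO replicate 1. The Slc16a1 difference between library types (0.06) ranged from -0.62 without DKO purified replicate 1 to 0.73 without DKO purified replicate 2. Why the purified DKO replicates lay apart was not tested. For 21 other genes named in Rb1 KO against WT, 292 of 294 pairs were unchanged and Bpgm lost its call in the others. On the recovered reads, edgeR called 12152 genes in Rb1 KO against WT, 4889 genes in Kdm5a KO against WT and 4319 genes in the difference between library types. With other exonic lengths, or none, the order of the 4 mixed groups was the same for each of 10 shares, 1 of these lengths being chosen after seeing the data. The percentages themselves depended on the length used. With the longest transcript, Hk2 went from 68.4% to 54.0% in mixed WT and from 62.5% to 47.5% in purified WT. Without a length correction, Pfkm went from 71.0% to 48.4% in Rb1 KO and Pdk1 from 24.4% to 45.7% in mixed WT. Replicate numbers did not pair samples (r -0.0327 to 0.0527 over 7 pairs of groups). With a replicate block the calls were 17 of the 35 genes and 4629 of all genes in Kdm5a KO against WT, 29 of the 35 genes and 12196 of all genes in Rb1 KO against WT, 29 of the 35 genes and 11628 of all genes in DKO against WT, 22 of the 35 genes and 8067 of all genes in DKO against Rb1 KO, 29 of the 35 genes and 11517 of all genes in DKO against Kdm5a KO, 18 of the 35 genes and 6543 of all genes in the interaction, 18 of the 35 genes and 7629 of all genes in purified DKO against WT and 20 of the 35 genes and 4113 of all genes in the difference between library types.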
